A study of Homo sapiens with 29 samples.

Results

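The RNA response of HCT116 cells to crotonate was measured in cells that carried a non-targeting siRNA. HCT116 is an established human colorectal carcinoma line. The comparison sets 4 RNA libraries from cells with 25 nM non-targeting siRNA and 10 mM crotonic acid against 4 libraries from cells with the same siRNA and no crotonate, so both groups carried an siRNA and differed in crotonate alone, per the labels. All genes at or above a log2 RPM (reads per M reads of the library, where M is the prefix mega) of −2 in at least 4 of the 16 RNA libraries of the series were taken, which kept 17973 of 38148 genes. The 8 libraries are part of a series of 29 samples, whose other RNA libraries come from cells with 35 nM siRNA against DAXX, which deposits histone H3.3, with or without the same dose of crotonate. The exposure is given as 48 h in the sample protocol and as 18 h in the series text, so its length is uncertain. The series uses 1 cell line, and the labels do not say whether replicates were separate cultures, so p-values measure the spread between libraries, which may be technical.

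Crotonate is a short-chain carboxylic acid, the unsaturated counterpart of butyrate, the acid that gut bacteria supply to colon epithelium. Cells can turn it into crotonyl-CoA, from which acetyltransferases such as EP300 and CREBBP place crotonyl groups on histone lysines. Class I histone deacetylases and sirtuins remove the mark, and proteins with YEATS or double PHD finger domains bind it. Butyrate is also a classical inhibitor of histone deacetylases, and genes that rise with such inhibitors form one of the gene lists described below.

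Of the genes tested, 2352 were higher with crotonate (13.1%) and 420 were lower (2.34%) at an adjusted p under 0.05 in limma. The typical change was small: the median log2 fold change was 0.59 among the higher genes and −0.33 among the lower ones. A change of at least 1 on the log2 scale was reached by 515 higher genes (2.87% of those tested) and by 12 lower genes (0.0668%). Genes with every crotonate library above every library without it numbered 2877 (16% of those tested), and 738 had the opposite order (4.11%). The predominance of higher calls depended on the scaling, since 84.85% of calls were higher with the deposited values but 46.15% (1458 higher, 1701 lower) after each library was centred on its median gene, which shifts all log2 fold changes by −0.129. The split was 58.5% higher after quantile normalization and 70.53% after upper-quartile scaling. Changes are given on the deposited scale, on which the median tested gene stood at 0.07.

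The libraries held 35.0 to 45.7 M reads without crotonate and 38.2 to 55.1 M reads with it. After all were thinned to the size of the smallest, 20979 to 21467 genes had at least 1 read without crotonate and 21620 to 22195 with it, with no overlap (exact two-sided permutation p = 0.0286, the smallest that 4 libraries against 4 can give, 0.0381 after adjustment over the 12 measures compared). Library 2 without crotonate stood apart: its correlations with the others of its group were 0.956 to 0.972, where the 4 crotonate libraries reached 0.993 to 0.997 among themselves. Without it, 2456 genes were higher and 441 lower. In a bulk sample, fewer cells of a type and less RNA per cell cannot be told apart.

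The share of higher genes changed with expression level and with the genomic span of the gene. Genes were placed by their level in the DAXX siRNA libraries without crotonate. These do not enter the fold change, but they share in the estimate of spread behind the calls. The 7 level classes ran from under −2 to 8 and above in log2 RPM, in steps of 2. In the lowest class 449 of 1086 genes, and in the next 28 of 2171, passed the filter on low values only through the crotonate libraries and so had to be higher there, and no trend is read from those 2 classes. In the 5 classes from a log2 RPM of 0 upwards no gene did, and the median log2 fold change went from 0.16 to −0.06. The median SE went from 0.20 to 0.085 over the same classes, so the shares called also depend on precision. Of the genes in these 5 classes 17.9%, 22.7%, 13.1%, 4.76% and 2.80% were called higher, and 1.05%, 1.47%, 2.88%, 5.05% and 4.35% were called lower. Genes that span under 10 kb were higher in 7.40% of cases and genes of 300 kb or more in 30.2%, with 10.5%, 14.3% and 23.5% in the classes between. The rise with span held without library 2 (8.71% to 28.1%), among coding genes with a log2 RPM of 2 to 6 (11.6% to 37.7%) and in the cells with DAXX siRNA (7.28% to 32.5%). Protein-coding genes were higher in 15.9% of 13469 cases and long noncoding RNA genes in 4.85% of 1030. Their median log2 fold changes were 0.078 and 0.081, with a median SE of 0.112 and 0.225, so the noncoding genes were tested less precisely. Of coding genes, 28.6% were higher at a log2 RPM of 0 to 2, 28.6% at 2 to 4 and 13.8% at 4 to 6. The 13.1% set beside the gene lists below covers all types and levels, and lists were not matched to it in either.

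**Figure D1:**
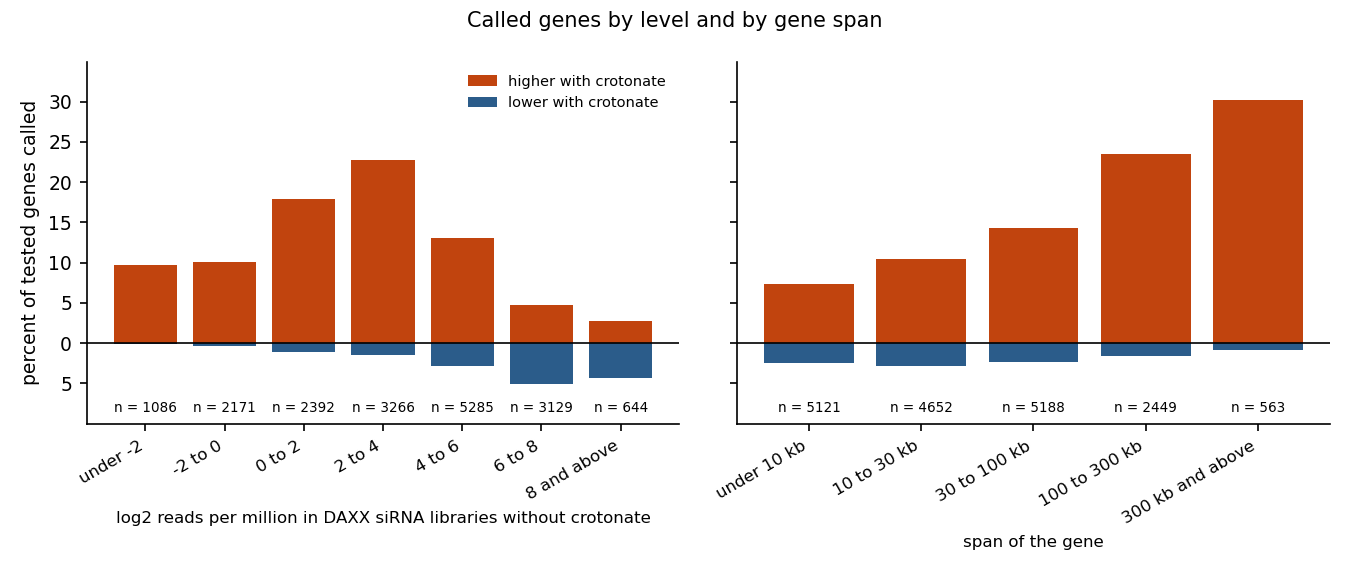
Share of tested genes called higher or lower with crotonate, in percent, by expression level in the DAXX siRNA libraries without crotonate and by genomic span. The share of higher genes is largest at middle levels (22.7%) and in genes of 300 kb or more (30.2%), while the share of lower genes is largest at the 2 highest level classes.

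The leading genes were taken among those whose mean in the higher of both groups was at or above the median tested gene (log2 RPM 4.09), so a gene that rose could be below that level without crotonate. Among genes chosen in this way, the largest rise was in NGFR, the low-affinity neurotrophin receptor. NGFR had 12.6, 14.8, 11.7 and 11.4 RPM without crotonate and 44.5, 52.3, 45.1 and 47.5 RPM with it, a log2 fold change of 1.91 ± 0.14 (SE; adjusted p = 3.82e-08). All crotonate libraries lay above all others. FN1, which encodes the matrix glycoprotein fibronectin, had 12.5, 12.9, 12.7 and 12.1 RPM without and 29.7, 31.7, 30.8 and 32.4 RPM with crotonate (log2 fold change 1.31, adjusted p = 1.69e-08). UCA1, a long noncoding RNA named for urothelial carcinoma, had 42.8, 50.5, 45.9 and 46.1 RPM against 106, 103, 101 and 107 RPM (1.17, adjusted p = 5.81e-09). SULF2, an extracellular enzyme that removes sulfate from heparan sulfate, had 15.1, 17.8, 15.8 and 16.8 RPM against 40.4, 36.3, 38.1 and 35.5 RPM (1.20, adjusted p = 6.43e-07). None of these 4 genes had overlapping groups. PDLIM3, a PDZ and LIM domain protein of the muscle Z disc, rose by 1.16, EIF4E3, a cap-binding protein, by 1.17, and SESN3, a sestrin induced by FOXO factors, by 1.35. RAB3D, a small GTPase of regulated secretion, rose less but evenly, from 18.6, 19, 18.4 and 19.2 RPM to 37.9, 38.2, 34.3 and 34.2 RPM (log2 fold change 0.94, adjusted p = 6.11e-08).

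A further 29 called genes with official symbols were nearly silent, with a mean under 1 RPM without crotonate and at least 2 RPM with it and no overlap, and the 8 with the largest rises are named. SLC8A2, a sodium-calcium exchanger of brain, went from 17 to 35 reads in a library without crotonate to 112 to 194 reads with it (log2 fold change 2.38). GPRIN3, STAT4 (a transcription factor of cytokine signalling), ST6GALNAC3 (a sialyltransferase) and PPP1R1A (a protein phosphatase 1 inhibitor) had log2 fold changes of 2.37, 2.23, 2.21 and 2.06. PCDH19, a protocadherin, CHST1, a keratan sulfate sulfotransferase, and PSD2 followed with 1.94, 1.92 and 1.85. All 8 stayed at low levels with crotonate. Over all tested genes, 477 passed the filter on low values only through the crotonate libraries, of which 90 were called higher. Another 151 passed only through the libraries without crotonate, of which 3 were called lower.

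**Figure D2:**
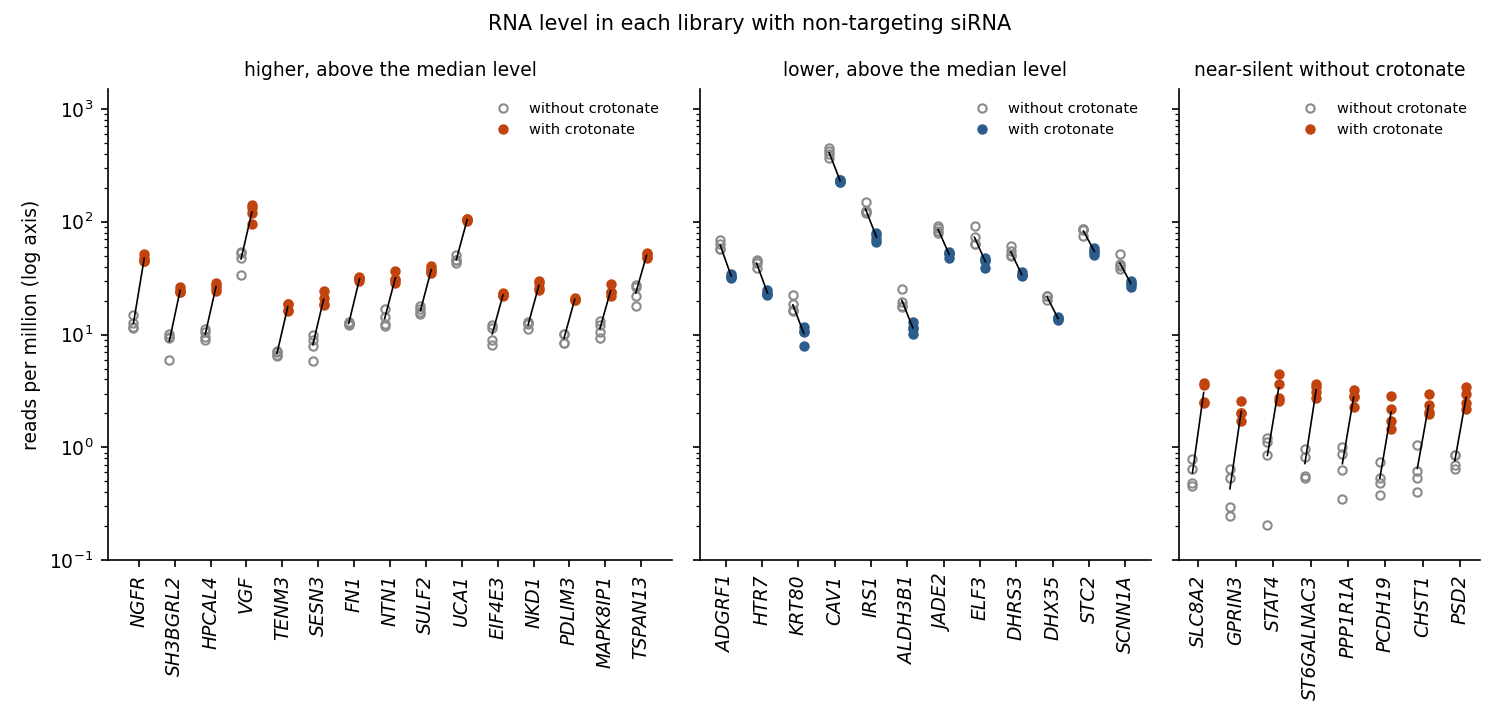
RPM of the leading genes, chosen by the level in the higher group, in each of the 8 libraries, on a log axis, with 1 point per library without and with crotonate. NGFR lies at 11.4 to 14.8 RPM without and 44.5 to 52.3 RPM with crotonate, and CAV1 falls from 367 to 448 RPM to 224 to 236 RPM, with no overlap in either gene.

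The falls were smaller. CAV1, the main coat protein of caveolae, had 398, 367, 448 and 426 RPM without crotonate and 236, 227, 236 and 224 RPM with it (log2 fold change −0.82, adjusted p = 3.19e-07). HTR7, a serotonin receptor, had 43.1, 45.4, 38.7 and 44.6 RPM against 22.4, 25.1, 23.1 and 22.9 RPM (−0.88). IRS1, the docking protein through which the insulin and IGF1 receptors signal, had 119, 150, 125 and 123 RPM against 66.6, 80.2, 76.2 and 70.1 RPM (−0.82, adjusted p = 1.03e-05). In all 3 genes every crotonate library was below every other library. ADGRF1, an adhesion G protein-coupled receptor, fell by 0.90, the keratin KRT80 by 0.84, the epithelial transcription factor ELF3 by 0.71 and SCNN1A, a subunit of the epithelial sodium channel, by 0.59 on the log2 scale. The 12 genes that fell by at least 1 were mostly expressed at low levels. They included LCN2, an iron-scavenging lipocalin, which had 2.33, 2.68, 2.46 and 2.64 RPM against 0.919, 0.863, 0.961 and 0.766 RPM (−1.53), and TNFSF18, a TNF family ligand (−1.38). The largest of these falls was in AC136489.1, a gene without an official symbol, with means of 0.435 RPM without and 0.0122 RPM with crotonate.

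Genes for the uptake and use of short-chain acids were mostly not called. Over all tested genes 13.1% were higher and 2.34% lower. Of 12 tested monocarboxylate transporters and acid receptors, 3 rose and 1 fell (2 and 1 without library 2). SLC16A7, the high-affinity transporter MCT2, had 14.3, 8.98, 15.4 and 15.2 RPM without crotonate and 17.8, 18.9, 21 and 22.5 RPM with it (log2 fold change 0.60, adjusted p = 0.00864). SLC16A1, which encodes MCT1, the main carrier of butyrate in colon cells, changed by −0.11 and was not called. Of 26 enzymes that make or consume crotonyl-CoA, 3 rose and 2 fell, a share of higher calls near that of all tested genes. Without library 2 the same count was 3 and 0. ACAA2, the mitochondrial thiolase, had 17.9, 19.4, 18.4 and 19.7 RPM against 24.4, 24.5, 22.2 and 24.8 RPM (0.35, adjusted p = 0.00436). EHHADH, the peroxisomal bifunctional enzyme of fatty acid oxidation, rose by 0.45. GCDH, which makes crotonyl-CoA from glutaryl-CoA, fell by 0.39 and BDH1, a ketone body dehydrogenase, by 0.30. The short-chain enzymes on the direct route were not called: ECHS1, the hydratase that acts on crotonyl-CoA, changed by 0.02, ACADS, the short-chain acyl-CoA dehydrogenase, by 0.27, and ACSS2, an acetyl-CoA synthetase reported to activate crotonate, by 0.10. Of 18 targets of the fatty acid receptor PPAR, 4 rose (ACSL5, ACSL1, CREB3L3 and PDK4) and none fell. CREB3L3, a transcription factor of liver and gut, had 0.321, 0.248, 0.134 and 0.44 RPM against 0.897, 1.65, 1.63 and 1.48 RPM (2.39, adjusted p = 0.00131). Of 25 cholesterol synthesis genes 3 rose, a share near that of all tested genes, and 7 did so without library 2. Of 19 fatty acid synthesis genes 5 rose and 2 fell (4 and 3 without library 2), the 2 being ACACA and ACLY, the enzymes that make malonyl-CoA and cytosolic acetyl-CoA. After median centring the fatty acid synthesis list turned to 0 higher and 8 lower, the crotonyl-CoA enzymes to 0 and 2, and the cholesterol genes to 1 and 0.

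Of 24 genes of the machinery that writes histone acyl groups, 1 rose and 4 fell, against 13.1% and 2.34% of all tested genes. JADE2, a scaffold of the HBO1 acetyltransferase complex, had 87.5, 91.9, 82.9 and 78.9 RPM without and 47.9, 53.5, 52.2 and 52.5 RPM with crotonate (log2 fold change −0.73, adjusted p = 2.65e-06). ING5, another subunit of such complexes, fell by 0.34, KAT2A (GCN5) by 0.29 and CREBBP by 0.25. EP300 had 87.8, 84.8, 84.7 and 83.9 RPM against 68, 78.5, 78.2 and 77.9 RPM, with no overlap, but did not pass the test (−0.18, adjusted p = 0.128). KAT2B (PCAF), the paralog of KAT2A, went the other way, with 5.81, 3.94, 5.4 and 5.69 RPM against 8.93, 7.69, 8.28 and 7.74 RPM (0.66, adjusted p = 0.00485). Of 31 deacylases and corepressors, HDAC9 (1.11) and SIRT2 (0.29) rose and HDAC7 (−0.34) fell. The class I enzymes that remove crotonyl groups were not called: HDAC1 changed by 0.10, HDAC2 by 0.13 and HDAC3 by 0.01. Among 34 readers, MLLT3 (AF9), a YEATS protein that binds crotonyllysine, rose from 7.57 to 16.7 RPM (1.14) and DPF3, a double PHD finger protein, from 0.364 to 1.25 RPM (1.87), while DPF2 fell by 0.21. Of 35 Polycomb genes 5 rose, JARID2 (0.57) and BMI1 (0.46) among them, and 2 fell, a share of higher calls near the 13.1% of all tested genes. Of 31 genes for H3.3 chaperones and DAXX partners, none rose and CBX5 (HP1 alpha, −0.41), CHD2 (−0.30) and SUV39H1 (−0.30) fell. Without library 2, the counts were 2 higher and 3 lower for the writers, 3 and 0 for the deacylases and 0 and 2 for the H3.3 genes. After median centring they were 1 and 9 for the writers, 1 and 7 for the deacylases, 3 and 9 for the readers, 2 and 4 for the Polycomb genes and 0 and 8 for the H3.3 genes.

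Genes reported to rise with histone deacetylase inhibitors rose in 15 of 26 tested cases, where 13.1% of all tested genes rose. The median log2 fold change was 0.51, and after median centring 12 of the listed genes were higher and 2 lower. DHRS2, a short-chain dehydrogenase, had 3.74, 5.65, 3.72 and 4.08 RPM without crotonate and 17.2, 17.5, 18.1 and 15.4 RPM with it (2.01, adjusted p = 6.11e-08). HSPA2, a testis-enriched HSP70, had 5.92, 4.28, 3.98 and 4.84 RPM against 10.3, 11.5, 9.72 and 10.2 RPM (1.15). The groups did not overlap in either gene. The cell cycle inhibitors CDKN2B and CDKN1C each rose by 0.87. CDKN1A, the p21 gene, had 249, 269, 240 and 245 RPM against 267, 259, 250 and 232 RPM, a log2 fold change of 0.01 ± 0.07 (SE; adjusted p = 0.961), and the groups overlapped. DHRS3, a retinal reductase, was the 1 listed gene that fell (−0.66).

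Several neural gene lists were tested, whose medians kept their sign under median centring, quantile normalization and upper-quartile scaling, except that of the clustered protocadherins. Of 24 neurosecretory and synaptic genes 10 rose and none fell (median 0.34), where 13.1% of all tested genes rose. Among coding genes that share was 28.6% at a log2 RPM of 2 to 4 and 13.8% at 4 to 6. Of 18 neurofilament, neuronal cytoskeleton and neurotrophin genes 11 rose and none fell (median 0.53). After median centring the first list had 9 higher and 2 lower genes and the second had 9 and 0. VGF, a secreted neuropeptide precursor, had 53.4, 53, 47.2 and 33.4 RPM without crotonate and 118, 140, 95.8 and 133 RPM with it (1.39, adjusted p = 4.34e-05). SYN1, the synaptic vesicle protein synapsin I, had 0.204, 0.338, 0.348 and 0.415 RPM against 0.852, 1.41, 1.13 and 0.793 RPM (1.69, adjusted p = 0.0102), and its reads could include those of the overlapping genes ARAF and TIMP1. The microtubule-binding proteins MAPT (0.78), MAP2 (0.90) and MAP1B (0.61) rose, as did SYP (0.97), the vesicle protein synaptophysin. SCG2, a secretogranin, changed by −0.17 and was not called. The 2 neurosecretory genes whose promoter holds the palindromic cAMP response element are shown because that element is the textbook binding site of CREB; its letters, TGACGTCA, were searched on both strands from 250 bases before to 50 after the RefSeq gene start and stand in capitals (GRCh38.p14, VGF at chr7:101165601-101165688 and SYN1 at chrX:47619969-47620056, both on the minus strand).
VGF: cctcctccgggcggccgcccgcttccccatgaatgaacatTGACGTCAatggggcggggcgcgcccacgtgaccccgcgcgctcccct
SYN1: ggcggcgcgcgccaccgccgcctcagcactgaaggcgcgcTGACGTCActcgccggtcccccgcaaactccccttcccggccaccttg
The motif was present in 540 of 27305 RefSeq promoters (1.98%), in 3.06% of those of tested genes and in 1.71% of those of genes that rose by at least 1.

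Axon guidance genes rose in 26 of 51 cases and 1 fell (median 0.43), against 13.1% higher and 2.34% lower over all tested genes. After median centring 19 were higher and 2 lower. In this system, secreted or membrane-bound cues (netrins, slits, semaphorins, ephrins) bind receptors that steer the growth cone, and many members also act in epithelia. Among the cues, 3 of 4 netrins, 2 of 2 slits, 7 of 16 semaphorins and 3 of 7 ephrins rose. NTN1, netrin 1, had 12.4, 16.9, 14.2 and 11.8 RPM without and 31.2, 36.4, 28.8 and 30.7 RPM with crotonate (1.21, adjusted p = 9.05e-07). SLIT2 had 1.93, 1.73, 2.57 and 1.78 RPM against 4.87, 5.62, 5.08 and 4.94 RPM (1.37). Among the receptors, 5 of 7 Eph receptors and 1 of 8 plexins rose. PLXNA2 had 1.2, 1.46, 1.04 and 0.831 RPM against 3.48, 4.38, 4.18 and 4.25 RPM (1.87, adjusted p = 2.76e-06). The neuropilins, co-receptors of class 3 semaphorins and VEGF, went in opposite directions. NRP2 rose from 1.63, 0.833, 1.23 and 1.37 RPM to 3.83, 4.25, 4.09 and 4.6 RPM (1.77, adjusted p = 5.21e-06), and NRP1 fell from 11.6, 8.15, 7.86 and 8.04 RPM to 4.6, 5.5, 5.1 and 4.44 RPM (−0.84, adjusted p = 0.000126). Neither gene had overlapping groups. TENM3, a teneurin of synapse matching, rose by 1.36.

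Clustered protocadherins, adhesion proteins that give neurons distinct surfaces, differed between the alpha and gamma clusters. Of 16 listed genes of the beta cluster 0 were tested. All 15 tested genes of the alpha cluster rose, and none of the 22 of the gamma cluster was called (median 0.02). The variable genes PCDHA1 to PCDHA13 had nearly equal values and deposited spans that overlap in the constant exons, so they are close to 1 measurement. The 22 gamma genes had log2 fold changes of −0.0298 to 0.041, so they too may not be separate measurements. PCDHA1 had 4.26, 3, 5.27 and 4.81 RPM without crotonate and 7.51, 7.08, 7.03 and 6.69 RPM with it (0.74, adjusted p = 0.0034). In the cells with DAXX siRNA the same gene had a log2 fold change of 0.30 (adjusted p = 0.235), and 2 genes of the cluster were called there.

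**Figure D3:**
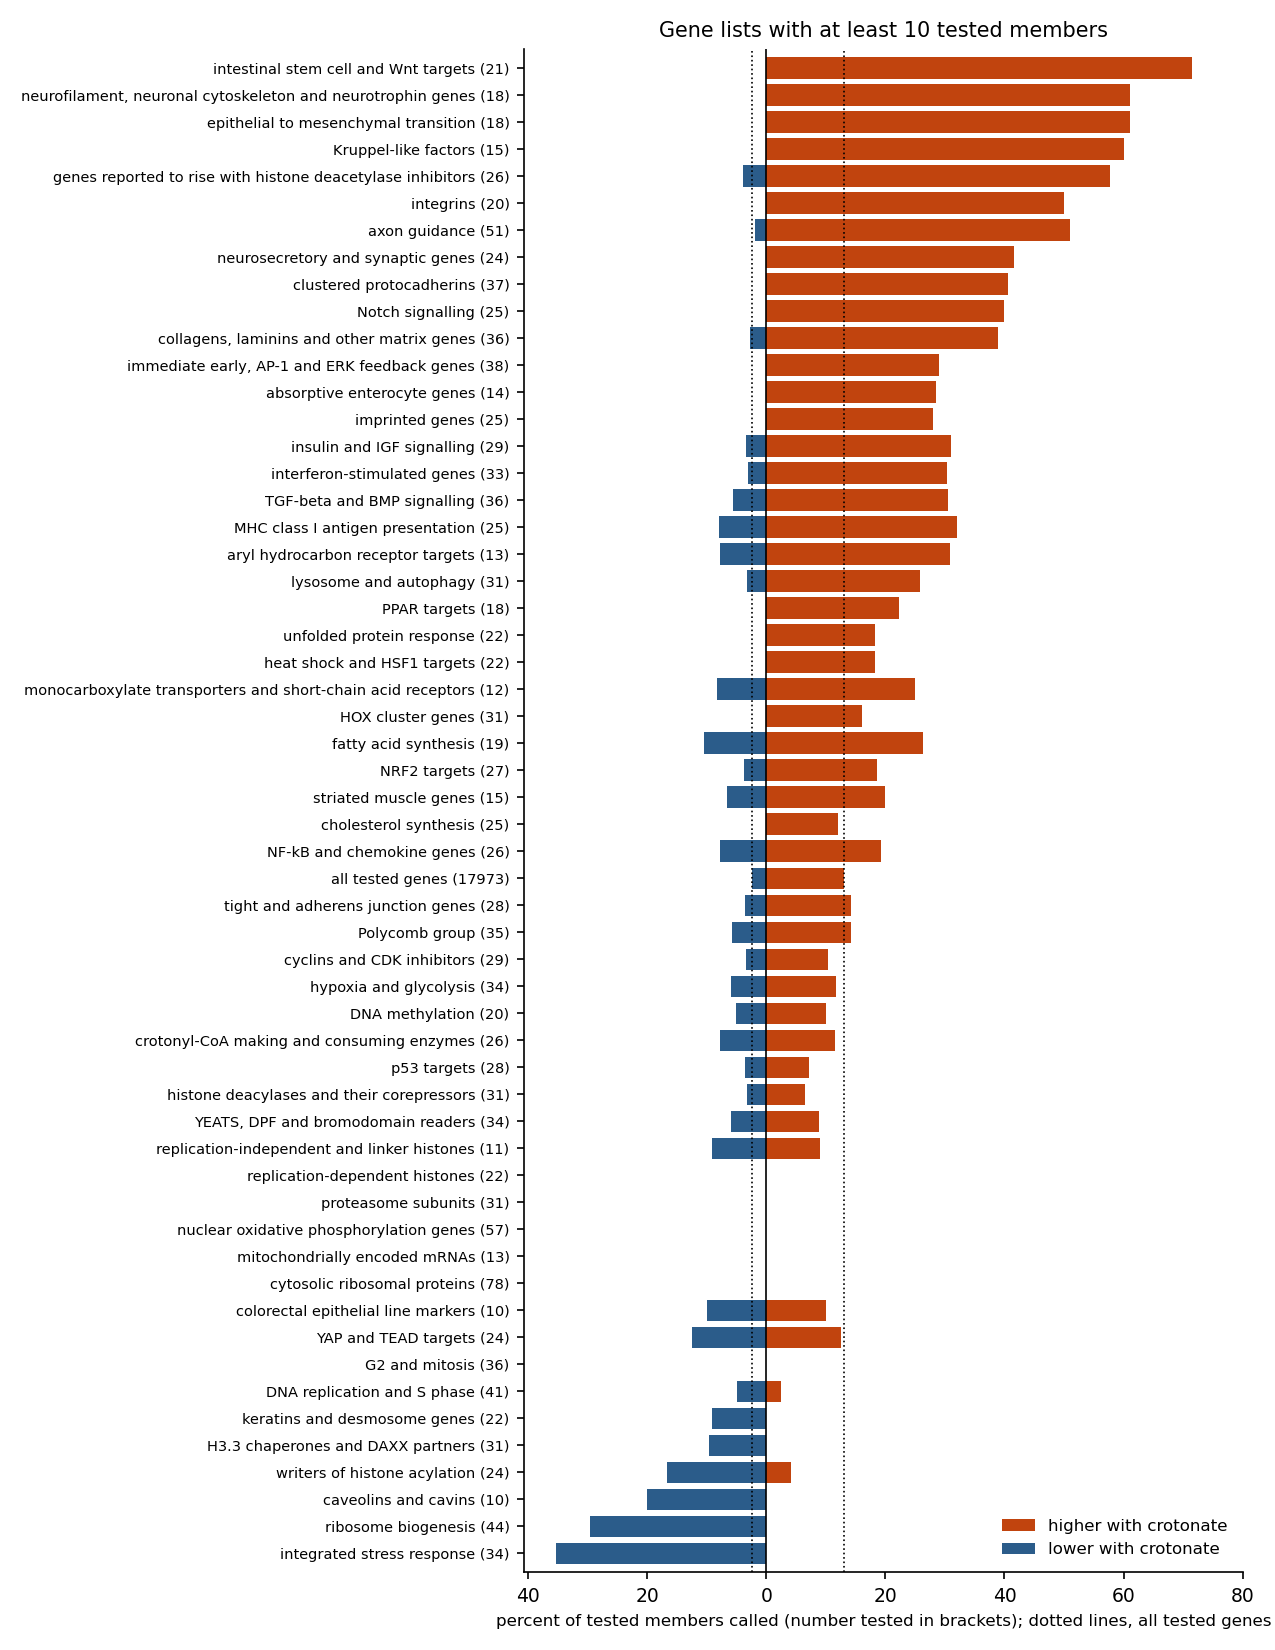
Share of tested members called higher or lower with crotonate for each gene list, in percent, beside the share over all tested genes (13.1% higher, 2.34% lower). Wnt targets, neurotrophin and cytoskeleton genes and Kruppel-like factors lie far to the higher side, and the integrated stress response (12 of 34) and ribosome biogenesis (13 of 44) lists lie at the other end with lower calls only.

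Genes of the intestinal epithelium and its stem cell programme were set against 13.1% higher and 2.34% lower over all tested genes. Of 21 stem cell genes and targets of Wnt, the signal that maintains intestinal crypts, 15 rose and none fell (median 0.48), and after median centring 9 were higher and 2 lower. NKD1, a Wnt feedback inhibitor, had 12.4, 12.6, 11.1 and 12.8 RPM without and 24.9, 29.8, 25.9 and 28.6 RPM with crotonate (1.16, adjusted p = 3.07e-07). DKK1, a secreted Wnt antagonist, had 278, 274, 315 and 317 RPM against 512, 470, 506 and 510 RPM (0.76), and AXIN2, the standard Wnt readout, 24.9, 24.7, 21.8 and 24.4 RPM against 28.6, 31.4, 31.6 and 29.5 RPM (0.34, adjusted p = 0.00934). The groups overlapped in none of these 3 genes. Of 14 absorptive enterocyte genes, CA2 (0.78), DPP4 (1.19), FABP6 (0.97) and SLC15A1 (0.82) rose and none fell. The general markers of the line moved little: of 10 tested, CDH1 (E-cadherin) rose by 0.32 and ELF3 fell, while EPCAM, KRT8, KRT18 and CDX2 were not called. KRT7 (−1.12) and KRT80 were the 2 of 22 keratin and desmosome genes called, both lower.

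Adhesion and matrix lists differed among themselves, against 13.1% higher and 2.34% lower over all tested genes. Of 28 tight and adherens junction genes 4 rose and 1 fell, with a median of 0.09 that turned to −0.04 after median centring. On the list for epithelial to mesenchymal transition 11 of 18 genes rose and none fell (median 0.50), of 20 integrins 10 rose and none fell (median 0.41), and of 36 matrix genes 14 rose and 1, COL13A1, fell. After median centring these 3 lists had 8 higher and 1 lower, 7 and 0, and 7 and 1. SNAI2 (Slug), a repressor of E-cadherin, had 0.204, 0.158, 0.294 and 0.0733 RPM without and 1.5, 0.803, 0.998 and 0.899 RPM with crotonate (2.65, adjusted p = 0.00598). ZEB1, another such repressor, had 6.92, 5.18, 6.71 and 6.89 RPM against 9.55, 9.83, 9.82 and 8.46 RPM (0.56). CDH1 itself rose in the same cells, and VIM (vimentin) was not called (0.25, adjusted p = 0.161). ITGA2, the collagen receptor subunit, had 70.5, 52.4, 72.5 and 84 RPM against 107, 103, 105 and 114 RPM (0.64, adjusted p = 0.000694), and 8 of 14 alpha subunits rose against 2 of 6 beta subunits. CAV1 and CAV2 were the 2 of 10 caveolin and cavin genes called, both lower, and without library 2 another 2 were called higher.

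Signalling and transcription factor families were read against the 13.1% of all tested genes that were higher and the 2.34% that were lower. Among coding genes the higher share was 28.6% at a log2 RPM of 2 to 4 and 13.8% at 4 to 6. The TGF-beta and BMP, insulin and IGF and imprinted lists lay near the first of these, and a match by level was not tested. Of 15 Kruppel-like transcription factors 9 rose and none fell (median 0.50). KLF4, which marks differentiated colon epithelium, had 16.6, 17.4, 14.7 and 15.6 RPM against 27.3, 28, 25.3 and 26.9 RPM (0.74), and KLF6 71.5, 60.7, 74 and 72.6 RPM against 98.6, 98.4, 98 and 96.9 RPM (0.50, adjusted p = 7.35e-05). Of 25 Notch genes 10 rose, with the receptor NOTCH3 at 0.93 and the target HES1 at 0.42. After median centring, 7 Kruppel-like factors were higher and 0 lower, and the counts were 6 and 2 for Notch, 9 and 4 for TGF-beta and BMP and 6 and 3 for insulin and IGF. Of 36 genes of TGF-beta and BMP signalling 11 rose and 2 fell: the BMP targets ID1 (0.54) and ID2 (0.84) rose and SMAD3, a transducer of TGF-beta, fell by 0.41. In insulin and IGF signalling 9 of 29 rose and IRS1 alone fell. The ligand IGF2 had 14.9, 16.8, 13.3 and 13.4 RPM against 22.5, 28.2, 24.4 and 24.6 RPM (0.77), its receptor IGF1R 22.1, 22.7, 17.1 and 21 RPM against 30.9, 34.5, 33.6 and 30.8 RPM (0.66), and the forkhead factor FOXO1 rose by 0.54. IGF2 and H19, neighbouring imprinted genes that are normally expressed from opposite parental chromosomes, rose together, H19 from 4.41, 5.18, 3.29 and 3.49 RPM to 7.15, 7.64, 8.26 and 7.74 RPM (0.93, adjusted p = 0.000623). They belong to 7 of 25 imprinted genes that rose, with PEG10 (0.67), DIRAS3 (2.49) and CDKN1C among the others. No imprinted gene fell on the deposited scale, but 6 were higher and 4 lower after median centring.

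Immediate early genes and feedback genes of ERK signalling rose in 11 of 38 cases and none fell (median 0.19). Over all tested genes 13.1% rose, and among coding genes 28.6% at a log2 RPM of 2 to 4 and 13.8% at 4 to 6. After median centring 10 of the listed genes were higher and 3 lower. EGR1, a growth factor-induced zinc finger factor, had 34.1, 30.8, 27.8 and 30.3 RPM without and 62.1, 62.1, 55.7 and 77.4 RPM with crotonate (1.06, adjusted p = 9.54e-06). FOS had 5.02, 5.67, 8.05 and 7.89 RPM against 12.2, 14.5, 14.7 and 15 RPM (1.11), and the phosphatase DUSP6, which turns ERK off, 108, 116, 123 and 124 RPM against 177, 167, 160 and 201 RPM (0.58). The groups did not overlap in these 3 genes. The EGR1 promoter is shown for 1 form of the serum response element, the site of SRF. The capitals mark the letters CATATTAGG, searched on both strands (GRCh38.p14, chr5:138465335-138465423, plus strand). Other forms of the element were not searched and would stand in lower case.
EGR1: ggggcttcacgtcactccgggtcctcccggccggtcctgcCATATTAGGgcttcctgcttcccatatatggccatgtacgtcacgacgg
These letters were found in 20 of 27305 promoters (0.0733%). The cAMP response element was present in 5 of 28 matched promoters of this list, but in 0 of the 7 of genes that were called.

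Of the 63 lists, the integrated stress response had the largest share of lower calls. In this pathway, phosphorylation of eIF2 alpha favours translation of ATF4, which switches on amino acid transporters, amino acid synthesis enzymes and tRNA synthetases. Of 34 tested genes 12 fell and none rose (median −0.23), where 2.34% of all tested genes fell. ATF4 itself had 363, 374, 337 and 355 RPM without crotonate and 308, 300, 323 and 291 RPM with it (−0.23, adjusted p = 0.043). CHAC1, a glutathione-degrading enzyme, had 12.2, 14.6, 10.4 and 9.63 RPM against 7.6, 7.16, 7.88 and 7.06 RPM (−0.64, adjusted p = 0.00216), and ASNS, asparagine synthetase, 179, 157, 178 and 182 RPM against 156, 131, 147 and 144 RPM (−0.27, adjusted p = 0.0352). In all 3 the crotonate libraries lay below the others. The transporter subunits SLC7A5 (−0.46) and SLC3A2 (−0.39), the secreted factor STC2 (−0.60), ATF5 (−0.49), TRIB3 (−0.33), PSPH (−0.32) and the synthetases WARS (−0.24), AARS (−0.24) and CARS (−0.21) fell as well. DDIT3, the CHOP gene, changed by −0.24 and was not called (adjusted p = 0.182). The list median stayed negative after median centring (−0.36) and quantile normalization (−0.23). The promoters of CHAC1, CARS and AARS are shown because they hold the 8-base core of the C/EBP-ATF element, the kind of site that ATF4 binds; the letters TGATGCAA were searched on both strands, and the capitals mark their occurrence on the opposite strand (GRCh38.p14, CHAC1 at chr15:40953222-40953309 on the plus strand, CARS at chr11:3057378-3057465 and AARS at chr16:70289646-70289733 on the minus strand).
CHAC1: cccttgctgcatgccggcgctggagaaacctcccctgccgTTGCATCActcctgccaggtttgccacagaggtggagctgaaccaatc
CARS: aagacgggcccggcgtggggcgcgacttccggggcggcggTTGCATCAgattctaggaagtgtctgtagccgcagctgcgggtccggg
AARS: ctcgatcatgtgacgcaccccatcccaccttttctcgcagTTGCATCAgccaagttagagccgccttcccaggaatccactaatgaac
The letters were present in 4 of 28 matched promoters of the list, in 3 of the 11 of called genes and in 252 of 27305 promoters in all (0.923%). The 9-base form TGATGCAAT, which contains the shorter one, was present in 0 of the 28, in 0 of the 11 and in 72 of 27305 (0.264%).

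Ribosome biogenesis genes, which make and process ribosomal RNA, fell in 13 of 44 cases and none rose (median −0.19). Over all tested genes 2.34% fell. Of the 44 genes 40 had a negative log2 fold change. MYBBP1A, a nucleolar protein, had 172, 172, 147 and 138 RPM without and 115, 130, 120 and 107 RPM with crotonate (−0.41, adjusted p = 0.00517). POLR1A, the largest subunit of RNA polymerase I, had 154, 152, 140 and 147 RPM against 110, 124, 127 and 120 RPM (−0.30), and UBTF, the upstream binding factor of ribosomal DNA, 209, 193, 192 and 192 RPM against 168, 172, 168 and 160 RPM (−0.24). These groups did not overlap. The called genes also included POLR1B, POLR1C and POLR1E, further subunits of the polymerase, and DKC1, NOP2 and NOP56, which modify ribosomal RNA. The sum over the list was 8034 to 9197 RPM without and 7390 to 7962 RPM with crotonate. The median was −0.32 after median centring and −0.20 after quantile normalization. On the deposited scale, none of 78 cytosolic ribosomal protein genes was called in limma, and neither was any of 57 nuclear oxidative phosphorylation genes, 31 proteasome subunits, 13 mitochondrially encoded mRNAs, 36 genes of G2 and mitosis or 22 replication-dependent histone genes. In DNA replication 2 of 41 genes fell, MCM5 (−0.35) and MCM2 (−0.30), and PRIM2 rose. The call of PRIM2 was lost in 9 of 17 other settings, among them all 3 scalings, and without library 2 the list had 0 higher and 3 lower genes. After median centring 13 of the 41 replication genes were lower and 0 higher, as were 6 of 36 genes of G2 and mitosis, 5 of 57 oxidative phosphorylation genes and 4 of 78 ribosomal protein genes.

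Immune genes of the epithelial cell also moved, where 13.1% of all tested genes rose and 2.34% fell. Among coding genes 28.6% rose at a log2 RPM of 2 to 4 and 13.8% at 4 to 6. The antigen presentation, interferon and lysosome lists lay near the first of these shares. Of 25 genes of antigen presentation 8 rose and 2, TAPBP and PSME2, fell. HLA-B had 92.2, 110, 92.6 and 89.9 RPM without and 153, 149, 143 and 148 RPM with crotonate (0.63, adjusted p = 2.2e-05), and HLA-F 5.89, 7.68, 5.54 and 6.82 RPM against 14.3, 14.2, 14.4 and 17.6 RPM (1.23); reads of such related genes can be shared between copies. HLA-DRA, a class II gene, had 0.642, 1.94, 1.6 and 1.25 RPM against 7.33, 7.34, 6.86 and 7.69 RPM (2.54), whereas CIITA, the class II transactivator, changed by 0.06 and was not called. Of 33 interferon-stimulated genes 10 rose, such as OASL (0.94) and IFIT1 (0.54), and IFI35 fell (−0.71). Lysosome and autophagy genes rose in 8 of 31 cases, with CTSB (0.35) and GABARAPL1 (0.51) among them, and NPC2 fell. Other stress lists stayed nearer the background: the unfolded protein response had 4 of 22 higher, heat shock 4 of 22, NRF2 targets 5 higher and 1 lower of 27, and hypoxia and glycolysis 4 higher and 2 lower of 34. After median centring these counts were 0 and 0 for the unfolded protein response, 3 and 3 for heat shock, 1 and 7 for NRF2 targets and 3 and 6 for hypoxia and glycolysis. The interferon list then had 4 higher and 3 lower genes, the lysosome list 4 and 2 and the antigen presentation list 7 and 3.

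Most markers of other cell types were below the filter on low values. Of 19 leukocyte markers 6 were tested and CORO1A rose (0.91), of 15 fibroblast and smooth muscle markers 7 were tested and DES (1.52) and ACTA2 (0.47) rose, and of 13 endothelial markers 4 were tested and ESAM, EGFL7 and PECAM1 rose. Of 15 hepatocyte markers 3 were tested and SERPINA1 rose (0.97). The defining genes PTPRC, CD3D, CDH5, KDR, COL1A2, COL3A1 and ALB were below the filter. The summed level was 15.1 to 21.4 RPM without and 20.5 to 23.9 RPM with crotonate for leukocytes, 25.7 to 38.3 and 39.7 to 44.8 RPM for fibroblasts and smooth muscle, 51.3 to 78.4 and 77.8 to 89.6 RPM for endothelium, and 1.98 to 2.59 and 3.51 to 5.11 RPM for hepatocytes. The part of these genes in the other results was not tested.

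Anti-crotonyllysine (Kcr) ChIP signal at gene starts was set beside the RNA calls. The regions are the deposited ones within 2 kb of a start, the signal is log2 scaled reads without input subtraction, and there were 3 ChIP samples without and 2 with crotonate. The only input is labelled with 35 nM siRNA and no crotonate, whereas these ChIP samples had 25 nM siRNA, so it is not a matched input. A region was present at 48.2% of genes that rose by at least 1 (248 of 515), at 64.9% of the other higher genes, at 69.2% of genes not called and at 81.7% of lower genes, against 68.5% of all tested genes. Relative to the median of all regions, which was −0.19, the change of signal with crotonate was 0.003, −0.10, −0.145 and −0.187 in the same order. These changes include ChIP sample 1, which exists only without crotonate and had the highest median signal over all regions (5.278 and 5.274 in its libraries). Samples 2 and 3 had medians of 5.146 and 5.111 without crotonate and 5.073 and 4.936 with it. The level of the gene moves with the order of the RNA classes. At a log2 RPM of 2 to 4 the shares, in the same order, were 50.7% (of 69 genes), 60.9%, 67.7% and 77.1%. At 4 to 6 they were 71.4% (5 of 7 genes), 67.4%, 76.8% and 80.3%. At 0 to 2 they were 51.7% (of 147 genes), 61.9%, 55.2% and 68%. Under 0 they were 45.2% (of 292 genes), 60.6%, 52% and 77.8%. Genes that rose by at least 1 had the lowest share in each of these classes but 4 to 6. Of the 15 leading genes that rose, 5 had a region (HPCAL4, VGF, NTN1, UCA1 and PDLIM3). Of the 12 leading genes that fell 11 did, but the rule took risers by their level with crotonate and fallers by their level without it, so both sets differ in starting level. At the VGF start the signal was 8.89, 8.57 and 8.41 without crotonate, 8.41 and 8.01 with it and 7.17 in the input. At the CAV1 start it was 7.95, 7.80 and 7.56, then 7.57 and 7.17, and 6.39 in the input, so both a gene that rose and a gene that fell had lower scaled signal with crotonate.

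**Figure D4:**
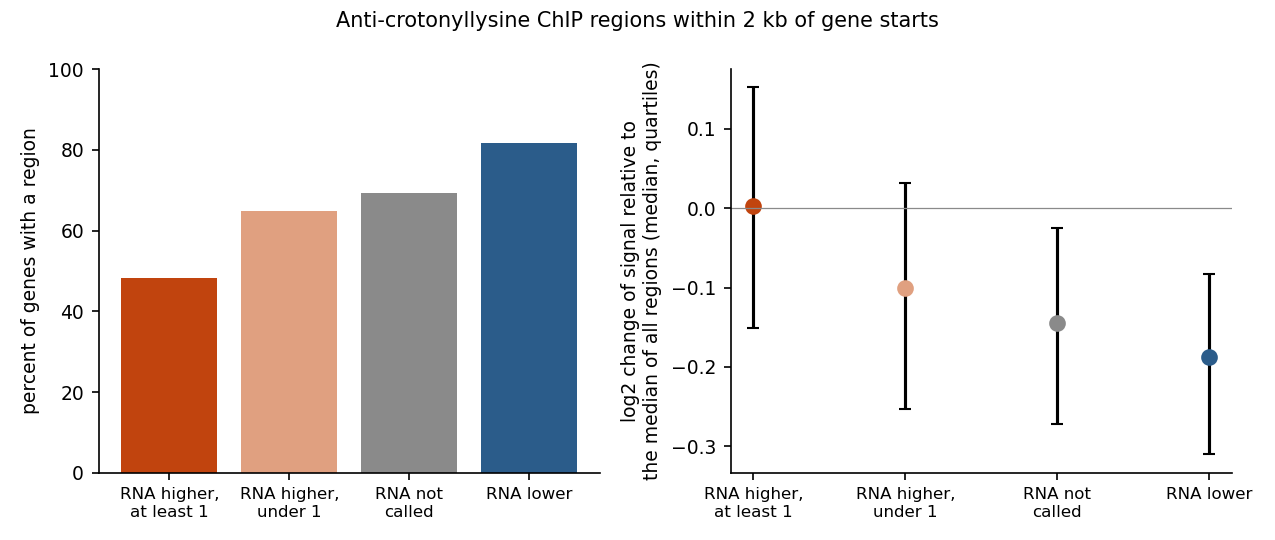
Share of genes with an anti-Kcr region within 2 kb of the start, in percent, and the change of log2 signal with crotonate relative to all regions (points, medians; bars, quartiles), by class of RNA change. The share goes from 48.2% in genes that rose by at least 1 to 81.7% in genes that fell.

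In cells with DAXX siRNA, whose libraries do not enter the fold changes above, crotonate gave 2338 higher genes (13%) and 433 lower genes (2.41%). Both comparisons came from 1 fit with a shared spread per gene, so the overlaps of calls below are not between independent tests. Of the 2352 higher genes 1655 were also called higher there (70.4%, and 70.8% of the genes called with DAXX siRNA), and of the 420 lower genes 188 were also called lower (44.8%, and 43.4%). The sign was the same in 2331 of the 2352 and in 413 of the 420. The test of the difference between both arms called 0 of 17973 genes (0%) in limma and 0 in limma-voom, with 433 genes (2.41%) and 443 genes at an unadjusted p under 0.05, so no gene was shown to respond differently. Genes with unequal calls include SPARC, a matrix protein that rose here and had a log2 fold change of −0.23 with DAXX siRNA, and INSIG1, a brake on cholesterol synthesis, with 0.36 and 0.02. FN1 had 1.31 and 1.35, CAV1 −0.82 in both, PLXNA2 1.87 and 2.75, and the stress response gene ATF4 −0.23 and −0.22. The stress response list had 11 lower genes of 34 with DAXX siRNA and the ribosome biogenesis list 8 of 44, and neither had a higher one.

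**Figure D5:**
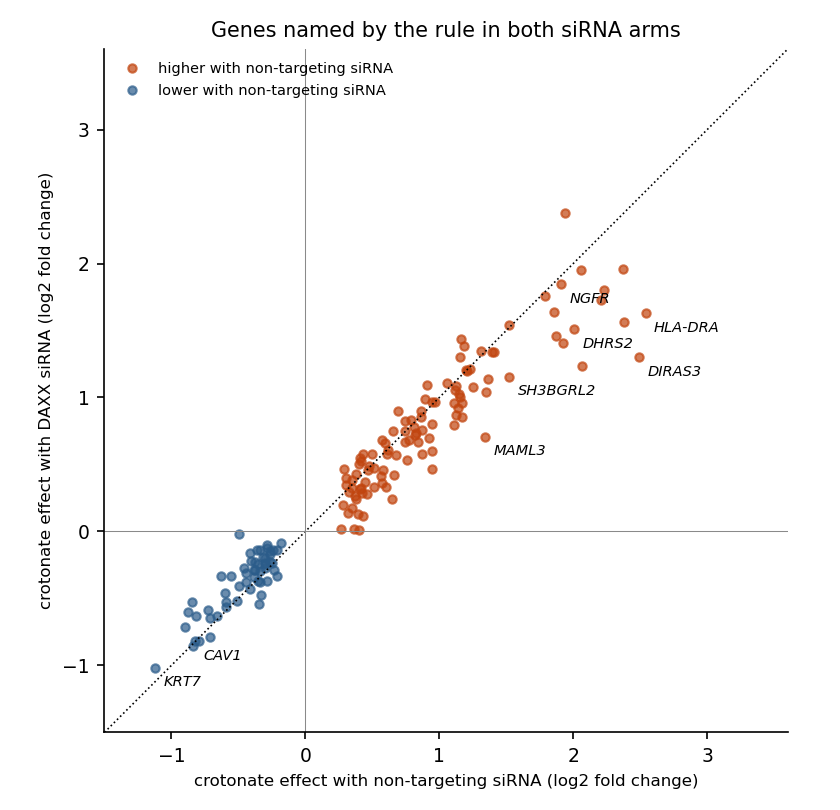
Log2 fold change with crotonate in cells with non-targeting siRNA (x axis) against that in cells with DAXX siRNA (y axis), 1 point for each of the 162 genes named by rule. All points lie in the quadrants of equal sign, and over all called genes the sign was equal for 2331 of 2352 higher and 413 of 420 lower genes.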

How the data were processed

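The RNA values deposited by the authors are log2 RPM without division by gene length, with 0 reads entered as 0.9 read before scaling. Undoing the scaling gave whole reads for 100% of the values (tolerance 0.01 read, wider at high counts). The ChIP values the authors deposited are log2 scaled reads in 49916 regions, with input as a column of its own. Per the submitters' processing notes, reads were trimmed with Trim Galore 0.6.2 (RNA) or 0.6.5 (ChIP) and cutadapt 2.3, RNA was aligned with HISAT2 2.2.1 and ChIP with Bowtie2 to GRCh38, and regions came from MACS. The counting strand is not given in the sources used here, so reads of a gene and an overlapping one cannot be told apart; 10267 tested genes overlap another. ChIP libraries 1A and 1B of a group were counted as 1 sample.

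The test was limma 3.58.1 in R 4.3.3 on the log2 values of all 16 RNA libraries, with a coefficient for each of the 4 groups, a variance prior that follows expression level, and p-values adjusted by Benjamini-Hochberg over all tested genes. The plan had put a count model first. Because the tables hold log2 values, limma took its place, and limma-voom on the recovered reads without further scaling was added after seeing the data. On simulated data limma, without voom, recovered 96% of 1.5-fold and 100% of 2-fold changes, with 13 false among 209 calls. The changed genes were all drawn from those at or above the median level, and all genes had the same dispersion. Recovery at lower levels was not tested. The genes, lists and tests were chosen with earlier results of these data known. Genes named by rule (162) were the 15 highest and 12 lowest called changes at or above the median level in the higher group whose groups do not overlap, 8 near-silent genes, 6 genes in either direction by smallest adjusted p and, for each list, 2 in either direction by the same measure. Members of a list beyond these were named for their role after their values were seen, and some genes that the rule takes are not reported here. Symbols and promoters are from RefSeq (GRCh38.p14); 11764 tested genes matched 1 of 27305 promoters.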

Additional observations from a re-analysis of the deposited data

Results flagged for a closer look

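Groups of 4 libraries in which 1 library stood apart from the other 3 (by the gap to the nearest other library over the range, Dixon's criterion) numbered 19 among the 324 groups of the 162 named genes; chance flags about 1 in 20. Library 2 without crotonate was the one apart in SH3BGRL2 (5.92 RPM, others 9.34, 10.2 and 9.53), DHX35 (20.3, others 21.9, 21.9 and 22), SLC16A7 (8.98, others 14.3, 15.4 and 15.2), EPHB2 (38.1, others 30.4, 30.2 and 30.3), CLDN7 (107, others 99.9, 99.1 and 100) and CDK4 (300, others 250, 244 and 246). In the same group library 4 was apart in STC2 (74.9, others 84.4, 85.5 and 85.8) and library 1 in NRP1 (11.6, others 8.15, 7.86 and 8.04).

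With crotonate, library 2 was apart in DKK1 (470, others 512, 506 and 510 RPM), RRM2B (104, others 114, 113 and 113), HK1 (166, others 146, 144 and 146), GPI (650, others 559, 551 and 550) and EGFL7 (77.7, others 68, 67.3 and 67.6). Library 4 was apart in ING5 (35.5, others 30.7, 30.9 and 30.7), CDKN2B (16.8, others 12.5, 12.9 and 12.9) and HLA-F (17.6, others 14.3, 14.2 and 14.4). Library 1 was apart in PEG10 (58.6, others 64.2, 65 and 64.1) and ACTA2 (4.35, others 4.62, 4.6 and 4.65), and library 3 in ACAA2 (22.2, others 24.4, 24.5 and 24.8).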

How the results depend on the processing

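The number of higher genes was 1458 after median centring and 1424 after quantile normalization, and that of lower genes 1701, 1010 and, with upper-quartile scaling, 765. Leaving out 1 library at a time gave 1804 to 2456 higher and 247 to 441 lower genes. The lower count was 267 without library 1 of the untreated group, and 247, 278, 269 and 259 without crotonate library 1, 2, 3 or 4. With a replicate block, 2632 genes were higher and 516 lower. Deviations of libraries of the same number correlated weakly, at 0.061, 0.167, 0.0173 and 0.0956. Those of libraries of different number correlated at −0.187 to 0.124. Whether the numbers pair the libraries cannot be told from these values. Limma-voom gave 2406 and 410. Genes higher by at least 1 numbered 289 after quantile normalization and 211 with a pseudocount of 0.5; those lower by at least 1 numbered 25 after centring, 48 after quantile normalization, 43 with no filter, 3 with the pseudocount, and 7 without untreated library 4 or crotonate library 1. Of 162 named genes, 115 kept their call in all 17 other settings, 47 lost it in at least 1 and 0 changed direction. ACLY lost it in 11 settings, SIRT2 in 13, BDH1 in 6, CDK4 in 8, HDAC7 in 6, EGFL7 in 11 and GPI in 10. List medians changed sign in 20 of 63 lists under centring, 7 under quantile normalization and 13 under upper-quartile scaling, among them the acid metabolism, deacylase, Polycomb and hypoxia lists. Depth limits the near-silent genes, whose reads are few.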
